A study of Mus musculus with 9 samples.

Results

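The genes described here encode the proteins of the cytosolic ribosome, and they were followed over 9 microarrays of mouse embryonic stem cells grown with or without leukemia inhibitory factor (LIF) or with a donor of nitric oxide. A gene was taken where a probe set carries 1 gene symbol only and that symbol is Rpl, Rps or Rplp with a number (and a letter a, x, l or y where there is one), or is Rpsa or Fau. Rps6 kinase genes and pseudogene symbols were left out, and the probe set with the highest mean signal stood for each gene. This gave 47 genes of 18194 with such a probe set, 24 of the large subunit and 23 of the small subunit. They have 101 probe sets, and 23 of the genes have more than 1. For 45 genes, 23 large and 22 small, the chosen probe set was bright enough to be tested. Rpl3l and Rps16 were not.

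All cells were the D3-pOct4 line, kept for 7 days. The LIF group received 1000 U/ml of recombinant LIF, the cytokine that keeps mouse embryonic stem cells undifferentiated. The no LIF group received neither addition. The donor group, also without LIF, received 2 µM DETA/NO, from which nitric oxide is set free over hours to days. There are 3 arrays a group, replicates 1, 2 and 3, from passages 31, 33 and 34 of the same line. Whether these were separate cultures is not stated in the labels, and a p-value here then covers the spread among the arrays only, which may be technical.

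A ribosome joins a small subunit, which holds the mRNA and reads its codons, to a large subunit, which forms the peptide bonds and releases the growing chain through an exit tunnel. Each subunit needs its proteins mostly in equal numbers, and the transcripts of these genes are among the most abundant in growing cells. Most start with a run of pyrimidines (the 5' terminal oligopyrimidine tract), through which growth signals set how much of the transcript is translated. In mouse embryonic stem cells, protein synthesis is known to rise on differentiation. An array reads the amount of a transcript, not its translation.

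Values are signal intensities, scaled by the authors so that the trimmed mean of every array is 100. Differences are in log2(signal + 3). Signals of different probe sets also depend on their probes, so the order of the members by signal is not the order of their transcripts, and a level of the large against the small subunit has meaning only as it changes between arrays. In a bulk culture, fewer cells of a type and less RNA per cell cannot be told apart.

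Some arrays stand apart. The median signal was 20.8 to 23.3 on LIF replicate 1 and on donor replicates 1 and 2, and 13.9 to 17.8 on the other 6. These 3 are called the brighter arrays, for their median alone. None of the no LIF arrays is among them. Socs3, a target of LIF signalling, went against the labels of 2 arrays: it read 282 on LIF replicate 2 and 3054 on no LIF replicate 2. The arrays of no LIF replicate 1 and donor replicate 3 were much alike over the members, with a standard deviation of their log2 differences of 0.0833 over 41 members, where the next closest pair of arrays had 0.164. The likeness was not confined to the members. Lama1 read 85.4 and 78.2 on these 2 arrays and 141 to 2976 on the others, and Col4a1 227 and 220 against 683 to 2786. Pth1r was less close, at 12.7 and 24.7.

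Since most of these transcripts are known to start with pyrimidines, the annotated start of transcription is shown for 12 genes. RefSeq gives a promoter for 41 of the 47 members on GRCm38.p6. Each line holds 15 bases before the annotated start and 15 from it on, on the strand of the gene, and capitals mark a run of at least 5 pyrimidines (C or T) that covers the start. The first 8 have such a run, and the last 4 do not, which is not the proportion among all members.
Fau (chr19:6057932-6057961, + strand): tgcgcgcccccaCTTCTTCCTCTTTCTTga
Rpl35 (chr2:39005117-39005146, - strand): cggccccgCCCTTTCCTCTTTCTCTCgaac
Rpl7a (chr2:26910792-26910821, + strand): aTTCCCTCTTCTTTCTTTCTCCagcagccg
Rps18 (chr17:33955651-33955680, - strand): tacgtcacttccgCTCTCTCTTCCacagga
Rps10 (chr17:27635230-27635259, - strand): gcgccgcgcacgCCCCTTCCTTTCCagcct
Rplp2 (chr7:141447636-141447665, + strand): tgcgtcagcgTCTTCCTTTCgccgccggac
Rpl38 (chr11:114668565-114668594, + strand): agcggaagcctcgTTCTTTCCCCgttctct
Rps9 (chr7:3704026-3704055, + strand): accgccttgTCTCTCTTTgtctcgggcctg
Rpl13a (chr7:45128731-45128760, - strand): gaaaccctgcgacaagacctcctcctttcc
Rpl11 (chr4:136053379-136053408, - strand): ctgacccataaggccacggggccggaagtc
Rpsa (chr9:120127751-120127780, + strand): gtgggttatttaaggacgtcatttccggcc
Rps3 (chr7:99483695-99483724, - strand): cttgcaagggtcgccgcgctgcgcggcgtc
Such a run lies over the annotated start in 14 of the 41 members, or 34.1%, against 9.97% of 27025 genes. It was found in 31.8% of the large and 36.8% of the small subunit members. RefSeq's most upstream start was used, and a run at any other start of a gene was not counted. In Rpl13a, a stretch of pyrimidines begins a few bases after the start used, and in Rps3 the window holds none.

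In the 250 bases before the start, several short motifs were searched on both strands. CCGGAAG, the letters that factors of the ETS family recognise, was in 16 of 41 members, or 39.0%, against 7.07% of all genes. GGGCGG, which Sp1 recognises, was in 48.8% against 33.0%. AAGATGGC, which YY1 recognises, was in 7.32% against 1.58%. The TATA letters TATAAA were in 7.32% of members and 13.0% of all genes, and CACGTG, which MYC recognises, in 7.32% and 6.04%. None of these motifs contains another. The last 100 bases before the start are shown for 3 members, with the motifs in capitals, as examples of members with CCGGAAG in this stretch.
Rps18 (chr17:33955666-33955765, - strand): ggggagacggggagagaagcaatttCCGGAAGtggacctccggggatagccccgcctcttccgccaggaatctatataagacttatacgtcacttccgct
Rps6 (chr4:86857368-86857467, - strand): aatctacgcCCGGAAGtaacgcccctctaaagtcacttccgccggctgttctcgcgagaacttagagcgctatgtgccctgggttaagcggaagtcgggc
Rpl38 (chr11:114668480-114668579, + strand): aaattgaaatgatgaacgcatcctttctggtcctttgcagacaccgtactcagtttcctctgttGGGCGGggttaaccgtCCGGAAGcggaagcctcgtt
Rpl38 holds both CCGGAAG and GGGCGG. A match is a description of the letters, and the arrays do not show whether a factor binds there.

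Most members were near the top of every array. In 36 of the 47, 17 large and 19 small, the mean signal was 2000 or more, and each of these lay at or above the 98.6th percentile on all 9 arrays. Their highest signal was 1.4 to 4.08 times their lowest, with a median of 1.73. Rpl13a, Rplp2 and Rpl38 had the highest mean signals of the large subunit and Rps29, Rps10 and Rps28 those of the small subunit. Rpl13a ranged from 8583 to 13642 and Rps29 from 7704 to 13386. Rps28 had the narrowest range among these 6, from 8495 to 12081.

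**Figure D1:**
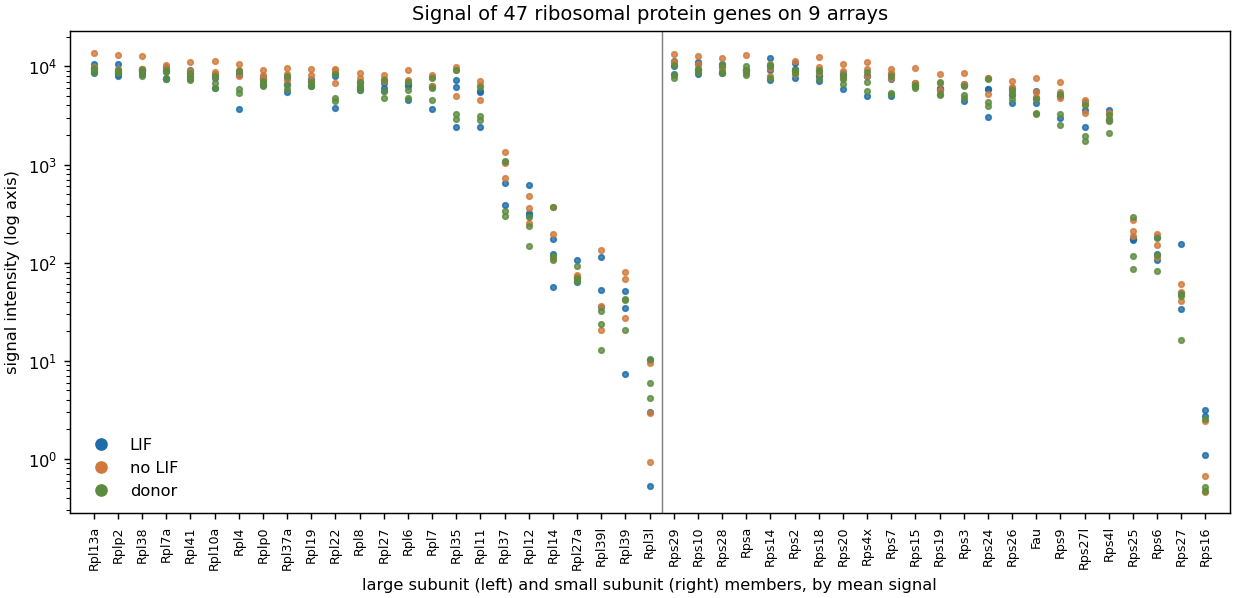
Signal intensity on a log axis for the 47 genes, large subunit on the left and small subunit on the right, ordered by mean signal, with 1 point per array coloured by group. The 36 members with a mean of 2000 or more form a flat band, and 10 members lie under a mean of 500.

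Below that band, 10 members had a mean signal under 500. They are Rpl12 (336), Rpl14 (180), Rpl27a (76.2), Rpl39l (51.4), Rpl39 (41.5) and Rpl3l (5.29) of the large subunit and Rps25 (187), Rps6 (139), Rps27 (55.4) and Rps16 (1.57) of the small subunit. For 8 of them the platform has other probe sets that list the gene beside further symbols, and the brightest of those had a mean of 4117 to 9395. Those probe sets name no single gene and were not used. A low value of these 8 members is therefore the reading of 1 probe set, not the level of the transcript. Rpl39l and Rpl3l, the paralogs of Rpl39 and Rpl3 known from testis and from striated muscle, have no such second probe set. Rpl3l ranged from 0.524 to 10.4.

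The mean of each subunit was highest without LIF and lowest with the donor. Averaged over the 45 tested members in log2, the large subunit had 11.22 ± 0.21 with LIF, 11.56 ± 0.10 without and 11.12 ± 0.32 with the donor (SD, n = 3 arrays each). The small subunit had 11.86 ± 0.11, 12.08 ± 0.18 and 11.72 ± 0.23. The no LIF mean lay above the LIF mean by 0.34 for the large and 0.22 for the small subunit, and above the donor mean by amounts of a similar size, since donor minus no LIF was -0.44 and -0.36. Donor minus LIF was -0.10 and -0.14.

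The large subunit minus the small subunit, over the 45 members, was -0.64 ± 0.17 with LIF, -0.53 ± 0.08 without LIF and -0.60 ± 0.09 with the donor. By array, for replicates 1 to 3, it was -0.81, -0.48 and -0.63 under LIF, -0.52, -0.45 and -0.61 in its absence, and -0.64, -0.67 and -0.50 under the donor. The groups overlapped. Without the 4 tested members whose mean signal is under 100, 20 large and 21 small members remain, and the difference was close to 0, at -0.09 ± 0.16, 0.02 ± 0.05 and -0.05 ± 0.11. Its change between groups was 0.11 from LIF to no LIF, -0.08 from no LIF to the donor and 0.04 from LIF to the donor over the 45 members. Each change was smaller than the SD between arrays in at least 1 of the groups compared, and no p is given, since the members were chosen as a list. Donor minus no LIF turned to 0.05 with probe sets of the _x_at kind left out and to 0.06 with the brighter arrays as a block. Leaving out the _x_at kind also changes what is averaged. It drops Rpl37, Rpl38, Rps2, Rps14 and Rps29, and it reads Rps20 and Rps24 from dim probe sets with means of 26.6 and 138.

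Within this spread, the 3 brighter arrays had the lowest values of both subunits and the lowest large minus small values. Over the 41 members with a mean of 100 or more, large minus small was -0.27 on LIF replicate 1, -0.09 on donor replicate 1 and -0.13 on donor replicate 2. On the other 6 arrays it ran from -0.05 on LIF replicate 3 to 0.08 on donor replicate 3. The large subunit mean was 11.77 ± 0.04 on the brighter arrays and 12.33 ± 0.16 on the other 6, and the small subunit mean 11.93 ± 0.07 and 12.31 ± 0.16 (SD over 3 and 6 arrays). The part of array brightness in the differences between groups was not tested beyond the block.

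**Figure D2:**
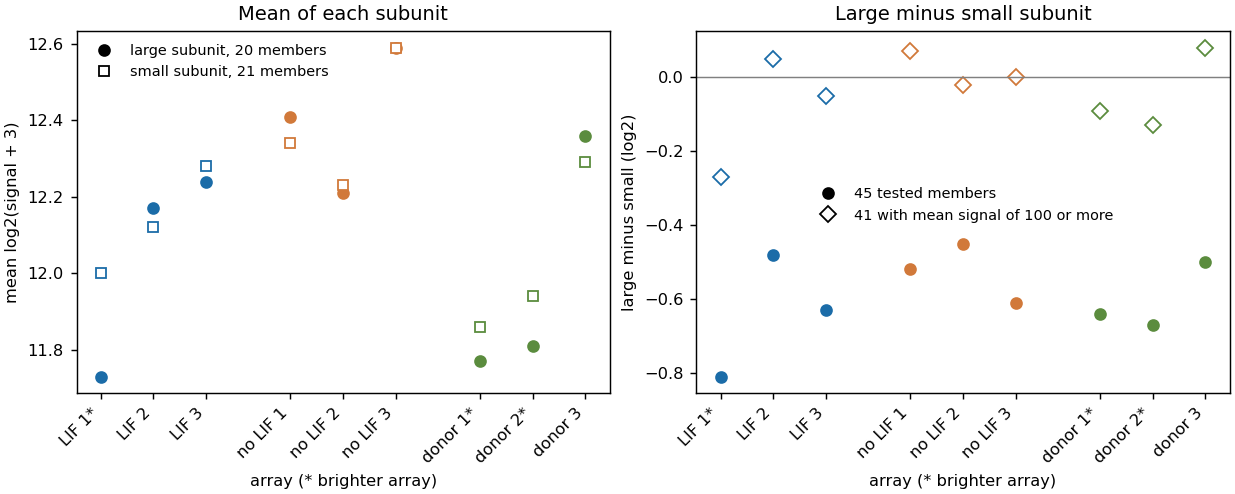
Left, the mean log2(signal + 3) of the 20 large (filled circles) and 21 small (open squares) subunit members with a mean signal of 100 or more on each array. Right, large minus small subunit on each array for the 45 tested members (filled) and for those 41 (open), with an asterisk on the 3 brighter arrays, whose open symbols are the lowest.

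In no comparison did a member pass the test. With limma and Benjamini-Hochberg adjustment over 29827 probe sets, 0 of 45 members were called in each comparison, and 0 of all probe sets (0%). The smallest adjusted p of a member was 0.973 for no LIF against LIF, 0.929 for the donor against no LIF and 1.0 for the donor against LIF. At an unadjusted limma p under 0.05, members numbered 0, 1 and 0. With the replicate number, which stands for the passage, as a block they numbered 0, 6 and 0, with 0 called. The share of all probe sets with such a p under the block was not computed. The member without the block was Fau, lower with the donor than without LIF, a direction in which 0.781% of all probe sets had such a p. Over all probe sets, 82 higher and 378 lower, 1265 higher and 233 lower, and 317 higher and 262 lower had such a p in the 3 comparisons. The standard error of a difference had a median of 0.25 over the members and 0.50 over all probe sets tested. In simulated data for no LIF against LIF, changes of 1 in log2 were put into probe sets drawn from all those tested. With the spread undivided 2.0% were called, and with the spread divided by 3 68.0% were. Neither is the share for the members, whose spread is smaller than that of all probe sets and was not simulated by itself. A member that was not called may still have changed.

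The sign of the differences was shared by most members. No LIF minus LIF was above 0 in 40 of 45 members (20 of 23 large, 20 of 22 small), where 42.7% of all probe sets were. Its median was 0.27, with 0.31 for the large and 0.26 for the small subunit, against -0.10 over all probe sets. Donor minus no LIF was below 0 in 44 of 45 members, where 44.0% of all probe sets were, with medians of -0.31 for both the members and the large subunit and -0.30 for the small, against 0.08. Donor minus LIF was below 0 in 33 of 45, where 47.8% of all probe sets were, with a median of -0.06 against 0.02. The comparisons share arrays: the no LIF arrays stand on the higher side of both of the first 2. Among the 36 members with a mean of 2000 or more, the no LIF mean was the highest of the 3 groups in 35, 17 of 17 large and 18 of 19 small.

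Other bright probe sets had differences of a similar size. Over the 572 other probe sets with a mean signal of 2000 or more, the medians were 0.30, -0.30 and -0.03 for the 3 comparisons. The 36 members of that brightness had 0.28, -0.30 and -0.05. These 572 still hold bright probe sets that list a ribosomal protein symbol beside further symbols, and Rps3a1. They are therefore not a background free of this gene family. The first difference was above 0 in 452 of the 572 and in 35 of the 36 members. The second was below 0 in 479 of the 572 and in all 36. After quantile normalization, which forces every array to the same distribution of signals, the members' median was 0.03 for no LIF minus LIF and -0.11 for donor minus no LIF, with 31 of 45 and 36 of 45 members of the sign given above. With the brighter arrays as a block, the medians were 0.17, -0.15 and 0.02, with 40 of 45 above 0, 38 of 45 below 0 and 26 of 45 above 0, so the sign of the third turned.

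**Figure D3:**
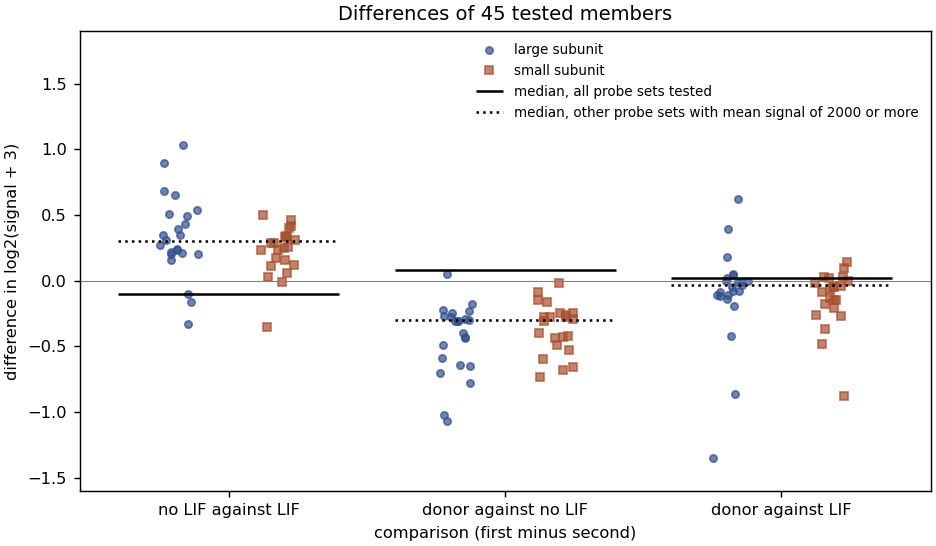
Differences in log2(signal + 3) of the 45 tested members in the 3 comparisons, 1 point per gene, with the large subunit as circles and the small subunit as squares. Solid lines mark the median of all probe sets tested (-0.10, 0.08 and 0.02) and dotted lines that of the 572 other probe sets with a mean signal of 2000 or more (0.30, -0.30 and -0.03), near which most members lie.

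The 3 arrays of no LIF lay above all 3 of LIF in 5 members, Rpl27, Rpl6, Rpl7, Rps18 and Rps25, and below them in 0. Over all probe sets tested, 2.88% were separated upward and 4.73% downward, and among the other probe sets with a mean of 2000 or more 17.5% were separated upward. The 3 donor arrays lay below all 3 of no LIF in 9 members, Fau, Rpl10a, Rpl19, Rpl38, Rpl6, Rplp0, Rps15, Rps29 and Rps3, and above them in 0. The shares were 2.52% downward over all probe sets, 12.2% downward among the other bright ones and 6.4% upward over all. The donor lay below LIF in Rpl12 and Rpl39l, 2 of 45, and above it in 0, where 3.19% and 2.8% of all probe sets did. One array had the highest signal of most bright members: no LIF replicate 3 in 31 of 36. The same array had the highest ratio of 3' to 5' signal of beta-actin, 3.15 against 1.52 to 2.68 on the other 8. The ratio for Gapdh differed little, 0.955 against 0.812 to 0.932. Without this array the median for no LIF minus LIF was 0.18 and that for donor minus no LIF -0.29. Whether RNA quality has a part in this was not tested.

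Members are given next by their role, with signals for replicates 1, 2 and 3 of each group. The P stalk of the large subunit draws in the elongation factors. Its base protein Rplp0 read 7458, 6497 and 7871 under LIF, 7507, 8254 and 9242 without it and 6842, 6281 and 7132 under the donor. The donor arrays all lay below the no LIF arrays, by 0.30 in log2 (SE 0.20, limma adjusted p = 0.929). Rplp2, one of the acidic proteins of the stalk, read 7894, 8420 and 10584, then 9354, 9074 and 12973, then 8866, 8628 and 9174. Its groups overlapped, with differences of 0.22 and -0.22 (SE 0.22). Rpl12, which sits at the stalk's foot, read 620, 309 and 322 with LIF and 234, 147 and 295 with the donor, a difference of -0.86 (SE 0.42, limma adjusted p = 1.0) from a dim probe set. Rplp1 was not analysed here.

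Rpl11 forms a particle with Rpl5 and 5S rRNA that can bind the p53 regulator Mdm2. It read 2400, 5550 and 5435 under LIF, 6538, 4507 and 7093 without it and 3102, 2823 and 6174 under the donor. The groups overlapped: LIF replicate 1 and donor replicates 1 and 2, the brighter arrays, were at 2400 to 3102 and the remaining 6 at 4507 to 7093. Its differences were 0.51 and -0.65 (SE 0.40), within the spread. Rpl5 was not analysed here.

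The exit tunnel is framed by Rpl35 and others, where nascent chains meet the signal recognition particle. Rpl35 varied most among the bright members, with 2428, 7320 and 6198 under LIF, 9911, 4968 and 9130 without it and 2890, 3311 and 9200 under the donor, a range of 4.08-fold. As with Rpl11, the 3 low values are those of the brighter arrays. No LIF minus LIF was 0.68 and donor minus no LIF -0.78 (SE 0.52), both within the spread. Rpl37, another protein of the large subunit, had the same pattern at a lower signal: 387, 1052 and 649, then 1347, 734 and 1032, then 297, 338 and 1093. Its donor minus no LIF, -1.07 (SE 0.54, limma adjusted p = 0.929), was the lowest of the 45 members.

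Rps2, Rps3 and Rps9 line the channel through which mRNA enters the small subunit, and they did not share a pattern. Rps2 read 10892, 7552 and 9346 under LIF, 8370, 9050 and 11410 without it and 9243, 9098 and 8484 under the donor, with a difference of no more than 0.09 in size in any comparison (SE 0.22). Rps3 read 4454, 6392 and 6581, then 6666, 6475 and 8605, then 4803, 5095 and 6354. All donor values of Rps3 were below all no LIF values, by 0.42 (SE 0.25, limma adjusted p = 0.929). Rps9 was among the 5 members with the smallest p for the donor against no LIF, at -0.68 (SE 0.33), with 5425, 4801 and 6903 without LIF and 3294, 2511 and 5242 with the donor.

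Fau encodes the small subunit protein S30 fused to a ubiquitin-like protein that is cut off. It read 4720, 4234 and 5570 under LIF, 4895, 5432 and 7639 without it and 3368, 3247 and 4672 under the donor. All 3 donor arrays were below all 3 no LIF arrays, while LIF overlapped with both. Donor minus no LIF was -0.66 (SE 0.26), with an unadjusted limma p of 0.0287 and an adjusted p of 0.929. Unlike Rpl35, its signal on the brighter LIF replicate 1 was not low. Its transcript start, printed above, holds a run of 16 pyrimidines, and that of Rpl35 holds 18. The other ubiquitin fusion, Rps27a, was not analysed here.

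Rps6 is the ribosomal target of the S6 kinases in growth signalling. Its single-symbol probe set was dim, with 183, 107 and 122 under LIF, 195, 115 and 151 without it and 121, 81.3 and 177 under the donor. The groups overlapped, with differences of 0.16 and -0.31 (SE 0.41). Rpsa, also known as a laminin receptor precursor, read 9169, 8709 and 9084, then 8655, 9202 and 13066, then 8205, 10069 and 9130. Apart from no LIF replicate 3, its arrays lay within 8205 to 10069, and the differences were 0.17 and -0.15 (SE 0.22).

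Rps19, Rps24, Rps26, Rps10, Rps7 and Rpl11 are known from Diamond-Blackfan anaemia, a failure of red cell production in which 1 copy of such a gene is lost. The list is not complete, and Rps27, Rps28, Rps29, Rpl27 and Rpl35 have been tied to the disease too. No LIF minus LIF was 0.23, 0.50, 0.31, 0.12, 0.34 and 0.51 for the 6. It was -0.35 for Rps27, 0.11 for Rps28, 0.26 for Rps29, 0.31 for Rpl27 and 0.68 for Rpl35. The probe set of Rps27 is dim and read 154, 33.4 and 49.5 under LIF. Donor minus no LIF was -0.28, -0.40, -0.28, -0.25, -0.49 and -0.65 for the 6. None passed the test, and several signs depended on the processing. After quantile normalization, Rps19 had -0.03 and 0.03 in these comparisons and Rps26 0.03 and 0.04. Without _x_at probe sets, Rps24 had -0.05 for no LIF minus LIF, but there it was read by a dim probe set with a mean of 138, not 5667. With the brighter arrays as a block, donor minus no LIF was 0.20 for Rps24 and 0.10 for Rpl11. Rps10 had 0.00 for no LIF minus LIF without LIF replicate 2 and without no LIF replicate 3. Rps19 read 5720, 5875 and 6029 under LIF, 6722, 5764 and 8410 without it and 5194, 5054 and 6972 under the donor, so its groups overlapped. Rps24 had a wider range, from 3018 on LIF replicate 1 to 7597 on no LIF replicate 1. In Rps29, which had the highest mean signal of the small subunit, the donor values of 7704, 8191 and 10391 lay below the no LIF values of 11025, 11180 and 13386 (-0.44, SE 0.22, limma adjusted p = 0.929).

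Rpl38 is needed for translation of Hox transcripts in mouse embryos. It read 8951, 8304 and 9464 under LIF, 9386, 9449 and 12770 without it and 7985, 8998 and 9291 under the donor. The highest donor value was just below the lowest no LIF value, and the difference was -0.25 (SE 0.21). Rpl10a and Rps25 are known from mouse embryonic stem cells as proteins that not every ribosome carries. Rpl10a read 6028, 7656 and 8295, then 8797, 7987 and 11399, then 6027, 6843 and 7891, with donor minus no LIF at -0.43 (SE 0.23, limma adjusted p = 0.929). Rps25, from a dim probe set, read 174, 170 and 179 under LIF, 272, 209 and 186 without it and 86.1, 117 and 292 under the donor. Its LIF arrays were below its no LIF arrays, by 0.33 (SE 0.45), and its donor arrays spanned both.

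The members with the smallest p for no LIF against LIF were Rps18, Rpl6, Rpl7, Rps4x and Rpl39. Rps18, in the head of the small subunit, read 7038, 7957 and 8257 with LIF and 9872, 8546 and 12598 without, which do not overlap (0.40, SE 0.22, limma adjusted p = 0.973). Rpl6 read 4588, 6339 and 6666 under LIF, 7225, 7172 and 9193 without it and 4750, 5798 and 6952 under the donor, and no LIF lay above both other groups. Rpl7 also separated no LIF from LIF, but by 4 units of signal only, 6313 against 6309, and its difference was 0.49 (SE 0.29).

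Some members are paralogs of another, and no difference between partners was tested. Rps4x, on the X chromosome, read 4998, 8043 and 7935 under LIF, 9305, 7891 and 11206 without it and 5615, 6906 and 8702 under the donor. Rps4l read 2860, 2908 and 3555, then 2855, 3344 and 3319, then 2096, 3231 and 2792. No LIF minus LIF was 0.46 (SE 0.27) for Rps4x and 0.03 (SE 0.25) for Rps4l. Rps27l, a known p53 target, read 2399, 3595 and 4320, then 4527, 3323 and 4175, then 1719, 1966 and 4059, with donor minus no LIF at -0.73 (SE 0.36, limma adjusted p = 0.929). Its partner Rps27 was read by a dim probe set of 154, 33.4 and 49.5, then 60.8, 40.2 and 49.8, then 48.5, 16.1 and 46.2, and no comparison with Rps27l can be made from it. Rpl39l read 52.2, 35.6 and 115 with LIF and 23.9, 12.9 and 32.1 with the donor, which do not overlap (-1.35, SE 0.67, limma adjusted p = 1.0). Its probe set is dim and near background, and the 12.9 of donor replicate 2 lay under that array's median signal of 20.8. Without LIF it ranged from 20.4 to 135, across both. Rpl39 ranged from 7.28 to 80.8.

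The brighter arrays stood apart in many members. In 20 of 45 members, 10 large and 10 small, all 3 brighter arrays lay below all 6 others, and in 0 above. Over all probe sets tested, 7.26% lay below and 14.6% above. Among the 641 probe sets with a mean of 2000 or more, which include those of the members, 34.8% lay below and 1.87% above. Among the 36 members of that brightness 19 (52.8%) lay below. The share without the members was not computed. Brighter minus other, in mean log2, was lowest for Rpl37 (-1.49), Rpl35 (-1.41), Rpl14 (-1.15), Rpl11 (-1.08), Rps27l (-0.98), Rpl22 (-0.96), Rps9 (-0.87) and Rpl4 (-0.87). It was near 0 for Rpsa (-0.06), Rps10 (-0.05) and Rps28 (-0.04), and above 0 in 4 of the 45, Rps14 (0.33), Rpl27a (0.29), Rps27 (0.13) and Rps2 (0.12), of which Rpl27a and Rps27 come from dim probe sets. Rpl14, Rpl4, Rps14 and Rpl27a were named after their values were seen. Rps14, a core protein of the small subunit's platform, read 10134 to 12309 on the 3 brighter ones and 7227 to 10546 elsewhere. The members with a run of 5 or more pyrimidines over the annotated start had a median of -0.26 (9 members, -1.41 to -0.05), and those with a shorter run or none -0.41 (21 members, -1.08 to 0.12), both over members with a mean of 2000 or more. The ranges overlap over most of their length. As a share of the total signal of an array, all members held 3.06% to 3.15% on the 3 brighter ones and 3.38% to 4.28% elsewhere.

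**Figure D4:**
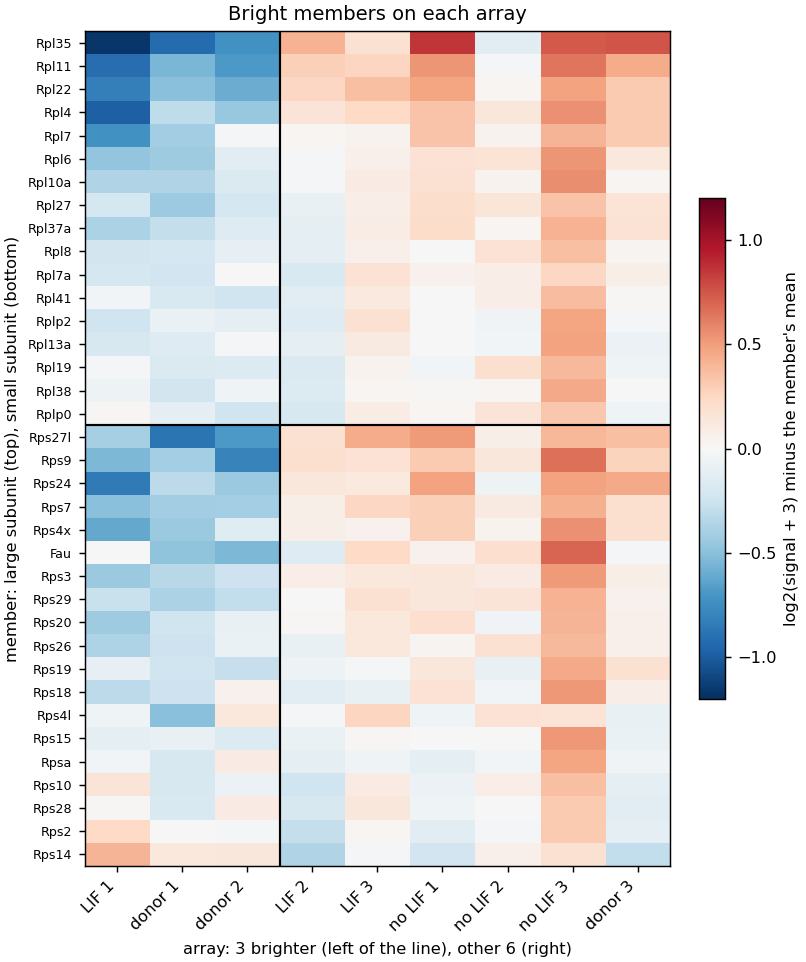
Log2(signal + 3) minus the member's mean over 9 arrays, for the 36 members with a mean signal of 2000 or more, large subunit above and small subunit below the line, ordered by brighter minus other. Blue on the 3 brighter arrays at the left is deepest for Rpl35 (-1.41 on average) and absent for Rps14 (0.33), and no LIF replicate 3 is red in most rows.

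Probe sets of 1 gene did not always share this pattern. In 17 members with at least 2 probe sets of a mean of 500 or more, the gap between the highest and the lowest brighter minus other value had a median of 0.32. It was up to 0.5 in 11 and over 1 in 5, namely Rpl41 (2.89), Rpl22 (2.22), Rpl7 (1.83), Rps10 (1.35) and Rpl37a (1.06). The 5 bright probe sets of Rpl35 were alike, from -1.43 to -1.24. In Rpl22, an RNA-binding protein of the large subunit that its paralog Rpl22l1 can replace, the brightest probe set read 3804 to 4735 on the 3 brighter ones and 6824 to 9367 elsewhere. A second read 392 to 453 and 1275 to 5892, a much larger gap for the same gene. The weakest of the 3 bright sets of Rpl7 read 427 to 887 and 1090 to 5669. Rpl41, the smallest of the ribosomal proteins and named after its values were seen, went both ways: its brightest probe set read 7216 to 8316 on the 3 brighter ones and 7764 to 10984 elsewhere, while a dimmer one read 963 to 2500 and 155 to 468. Taking the mean of all probe sets of a gene left 0 members called.

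**Figure D5:**
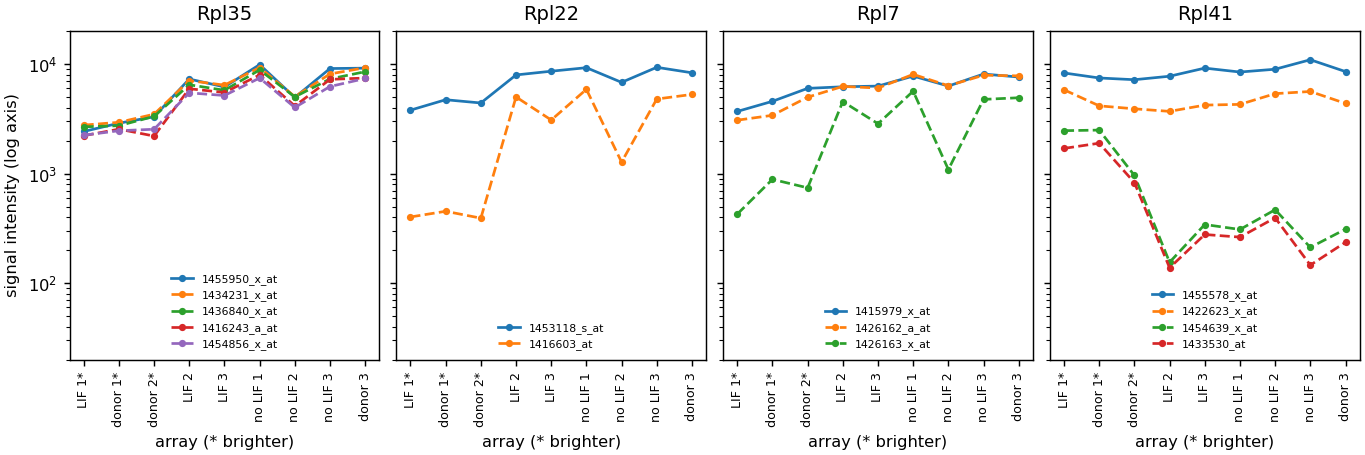
Signal intensity on a log axis of the probe sets with a mean of 500 or more of Rpl35, Rpl22, Rpl7 and Rpl41 on the 9 arrays, the 3 brighter arrays first, with a solid line for the probe set used. The probe sets of Rpl35 run together, 1 of Rpl22 and 1 of Rpl7 drop further on the brighter arrays (to 392 and 427), and 2 of Rpl41 are higher there.

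Other genes of translation mostly had the sign of the members in the first 2 comparisons, and none passed the test (limma, 0 called in each). The list of further genes with a 5' terminal pyrimidine tract, such as elongation factors, had 21 tested genes. No LIF minus LIF was above 0 in 21 of 21 (median 0.44), donor minus no LIF below 0 in 21 of 21 (median -0.32) and donor minus LIF above 0 in 11 (median 0.01). In the first 2 comparisons, 42.7% and 44.0% of all probe sets had these signs. Of the 572 other probe sets with a mean signal of 2000 or more, which include most of these genes, 452 and 479 had them. The 2 brightest genes of the list, Eef1a1, which brings aminoacyl-tRNA to the ribosome, and Tpt1, a growth-related protein, differed least, by 0.09 and -0.03 and by 0.07 and -0.04. Of 30 ribosome biogenesis factors, 28 were above 0 without LIF (median 0.43), 22 below 0 with the donor against no LIF (median -0.19) and 26 above 0 with the donor against LIF (median 0.21). Ncl, the nucleolar protein nucleolin, had 0.45, -0.25 and 0.20, and Nhp2, of the box H/ACA particles that modify rRNA, 0.63, -0.53 and 0.10. RNA polymerase I and its factors, which make rRNA, gave 9 of 15 above 0, 8 of 15 below 0 and 12 of 15 above 0, with medians of 0.16, -0.03 and 0.30. Polr1d had 0.71, -0.39 and 0.32 and Polr1c 0.52, -0.18 and 0.34. In the comparison of the donor with LIF, 52.2% of all probe sets were above 0. The biogenesis factors thus had a median of 0.21 in this comparison where the ribosomal proteins had -0.06. The difference between the lists was not tested.

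Markers of embryonic stem cells were high on all arrays, with a summed signal of 12325 to 26547 over 7 genes, all tested. They were below 0 for donor minus no LIF in 7 of 7 (median -0.47), as most members were. So were 44.0% of all probe sets, and 479 of the 572 other probe sets with a mean signal of 2000 or more. By the labels, no LIF minus LIF of these markers was above 0 in 5 of 7 (median 0.19), where 42.7% of all probe sets were. This count includes LIF replicate 2 and no LIF replicate 2, whose Socs3 went against the labels. No LIF replicate 2 had the highest signal of Nanog, Sox2, Dppa5a, Tdgf1 and Utf1, but not of Pou5f1 and Zfp42. Tdgf1 read 4185, 1613 and 5499 under LIF and 3180, 5672 and 3078 without it. The sign of the list without both arrays was not computed. Donor minus LIF was below 0 in 6 of the 7 stem cell markers (median -0.32), where 47.8% of all probe sets were. Parietal endoderm markers, of which 6 of 7 were tested, summed to 4930 to 15630 with LIF, 2256 to 7186 without and 2199 to 5043 with the donor. Their no LIF minus LIF was below 0 in 6 of 6, the opposite sign to the ribosomal proteins, where 57.3% of all probe sets were below 0. Neural markers summed to 71.0 to 214, cardiac muscle markers to 27.2 to 109 and feeder fibroblast markers to 67.5 to 144, with 3 of 7 fibroblast genes tested. The fibroblast genes Postn and Lum were at 3.30 and 5.96 on average. The part of cell types in the differences of the ribosomal protein genes was not tested.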

How the data were processed

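RNA of 9 samples was hybridised to Affymetrix Mouse Genome 430 2.0 arrays. The authors deposited linear signal intensities, made with GeneChip Operating System 1.4.0.036 and global scaling per the series' design text. MAS5 is named in the submitters' processing notes. Each column has a 2% trimmed mean of 100. Depth does not apply to arrays, and their number, 3 a group, limits the precision. Values of 45101 probe sets, from 0.0144 to 17201, were turned to log2(signal + 3), which understates the change of dim probe sets. Control probe sets were left out. Tests took in the 29827 probe sets that reached the 40th percentile on 3 or more arrays.

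Gene symbols came from the platform annotation. Another 110 probe sets list a ribosomal protein symbol beside further symbols and were not used. The differences were fitted with limma 3.58.1 in R 4.3.3 (lmFit, eBayes with an intensity trend) over all 9 arrays with group as the only term, two-sided. The Benjamini-Hochberg adjustment ran over these 29827, with a call at 0.05. The fit was tested on simulated data. Subunit values are means of log2 signals per array, a description with no p. The members, lists and alternatives were chosen with earlier results of these data known. The genes named are those of highest and lowest signal in each subunit, the 5 with the smallest p in each comparison, members of stated roles and paralogs, the 2 brightest genes of each pathway list, and Rpl4, Rpl14, Rpl19, Rpl27, Rpl27a, Rpl37a, Rpl41, Rps14 and Rps15, named after their values were seen. Rpl7a is named for its start sequence only, and Lama1, Col4a1 and Pth1r for the likeness of 2 arrays, after their values were seen. Promoters are RefSeq's, of GRCm38.p6.

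The alternatives were the pseudocount (1 or 16), no filter, quantile normalization, no trend, a replicate block, only the arrays of both groups compared, the mean of a gene's probe sets, no _x_at probe sets, brightness (median over 20) as a block, the omission of each array and of both pairs of doubted arrays.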

Additional observations from a re-analysis of the deposited data

How the results depend on the processing

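Members called stayed at 0 in all 3 comparisons under all alternatives run. The medians moved by more than the spread between arrays under quantile normalization, to 0.03 for no LIF minus LIF and -0.11 for donor minus no LIF. Leaving out 1 array at a time, they ran from 0.18 to 0.35, from -0.53 to -0.27 and from -0.15 to 0.00. The -0.53 is without donor replicate 3, where 11 members had an unadjusted limma p under 0.05 and the smallest adjusted p was 0.211. Without _x_at probe sets, a setting that also drops some members and reads others from dim probe sets, large minus small for donor minus no LIF turned to 0.05. It turned to 0.06 with array brightness as a block. Leaving out 1 array it ran from 0.03 to 0.19, from -0.12 to -0.03 and from -0.05 to 0.12. Without both arrays of replicate 2 whose Socs3 goes against the labels, the medians were 0.33, -0.41 and -0.06, and without the alike pair 0.32, -0.45 and -0.15. Without the alike pair, 0, 9 and 4 members had an unadjusted limma p under 0.05. The smallest adjusted limma p of a member for the donor against no LIF was then 0.334. The labels give each replicate number 1 passage in all groups and do not say whether the groups of a passage came from the same culture. Deviations of same-numbered arrays over the members correlated from -0.597 to 0.65, of mixed sign. With the replicate block, 0 members were called, the medians were 0.27, -0.31 and -0.06, the large minus small difference for no LIF minus LIF was 0.11, and 6 members had an unadjusted limma p under 0.05 for the donor against no LIF, where the fit without it had 1. For the counts of 11, 9, 4 and 6 members under these alternatives, the share of all probe sets with such a p was not computed. They are therefore no result about the members. Of 2067 values of 33 named members under the alternatives, 123 had the other sign. The causes were not tested. No member was called in any fit, so a sign that was kept says nothing of a tested change. Signals of probe sets near background limit Rpl3l, Rps16, Rps27, Rpl39 and Rpl39l.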

Other observations

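Among genes of ribosomal proteins and their relatives whose symbols the rule did not take, Rps3a1, the small subunit protein S3a, ranged from 3507 to 5564 over the 3 brighter arrays and from 7296 to 10228 over the remaining 6, which do not overlap. Rpl22l1, the paralog of Rpl22, read 991 to 1073 and 1576 to 3094, apart in the same direction as Rpl22 (3804 to 4735 and 6824 to 9367). Rpl7l1, a paralog of Rpl7 that works in ribosome assembly, read 169 to 449 and 227 to 802, which overlap.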
